A study of Homo sapiens with 3 samples.

Results

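The BCL2 family survival and death genes were examined here as a set of 10 genes, listed by name, of the 19974 protein-coding genes on chromosomes 1 to 22 and X. They were 4 anti-apoptotic genes, MCL1, BCL2, BCL2L1 and BCL2A1, and 6 pro-apoptotic genes, BCL2L11, BAX, BAK1, BID, BBC3 and PMAIP1. For each gene every deposited peak that touched the annotated span or the 50 kb on either side was taken, and the 10 windows did not overlap one another. The peaks came from HCC1599, an established breast cancer cell line that the series title places among triple-negative cancers positive for MARCO-TST. Chromatin immunoprecipitation and sequencing was used to map H3K27ac, a histone acetylation typical of active enhancers and promoters, and H3K4me3, a histone trimethylation typical of promoters. The series held 3 samples of this line with no treatment named, 1 for each mark and 1 input without antibody, so that nothing here is replicated and no test was run. A gene without a peak is a gene where none was called, since read depth and local copy number could not be read from the peak lists.

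Proteins of the BCL2 family decide whether the outer mitochondrial membrane is opened during apoptosis. BAX and BAK1 are the effectors that form pores in that membrane, the anti-apoptotic proteins hold them and their activators in check, and the BH3-only proteins BIM (from BCL2L11), BID, PUMA (from BBC3) and NOXA (from PMAIP1) activate the effectors or occupy the anti-apoptotic proteins. In breast cells MCL1 and BCL2L1 are widely expressed survival genes, while BCL2 is best known from estrogen receptor-positive tumours and BCL2A1 from blood cells.

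The lists held 72894 H3K27ac peaks and 32043 H3K4me3 peaks on the chromosomes used. Each peak carries a score deposited by the authors, which has no stated unit and is used only within a list. Of all peaks, 3.71% of H3K27ac and 33.9% of H3K4me3 had a score of 3100 or more, most of them exactly 3100, so that the score does not rank the strongest peaks. The markers went with an epithelial cell line: EPCAM, CDH1, KRT18 and KRT5 had both marks at their starts and KRT8 had H3K27ac alone. Neither mark was called at the start of any of 5 leukocyte, 4 fibroblast and 4 endothelial marker genes.

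Both marks lay at the start of 9 of the 10 genes (90.0%, exact Clopper-Pearson 95% interval 55.5 to 99.7, counting error only), where a mark at the start means a peak within 1 kb of it. The interval counts the genes as independent draws although they were listed by name, so it is no test. Over all protein-coding genes 57.7% had both, and 60.0% had H3K27ac and 70.0% H3K4me3 there. The exception was BCL2A1, which had neither, as did 27.8% of all genes. The 9 marked starts each had an H3K4me3 peak scoring 3100, which 54.0% of all genes reached or passed. For H3K27ac, MCL1 alone reached that score, against 8.04% of all genes. The 9 marked genes thus differed from one another in the width of both marks and in the score of H3K27ac.

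**Figure D1:**
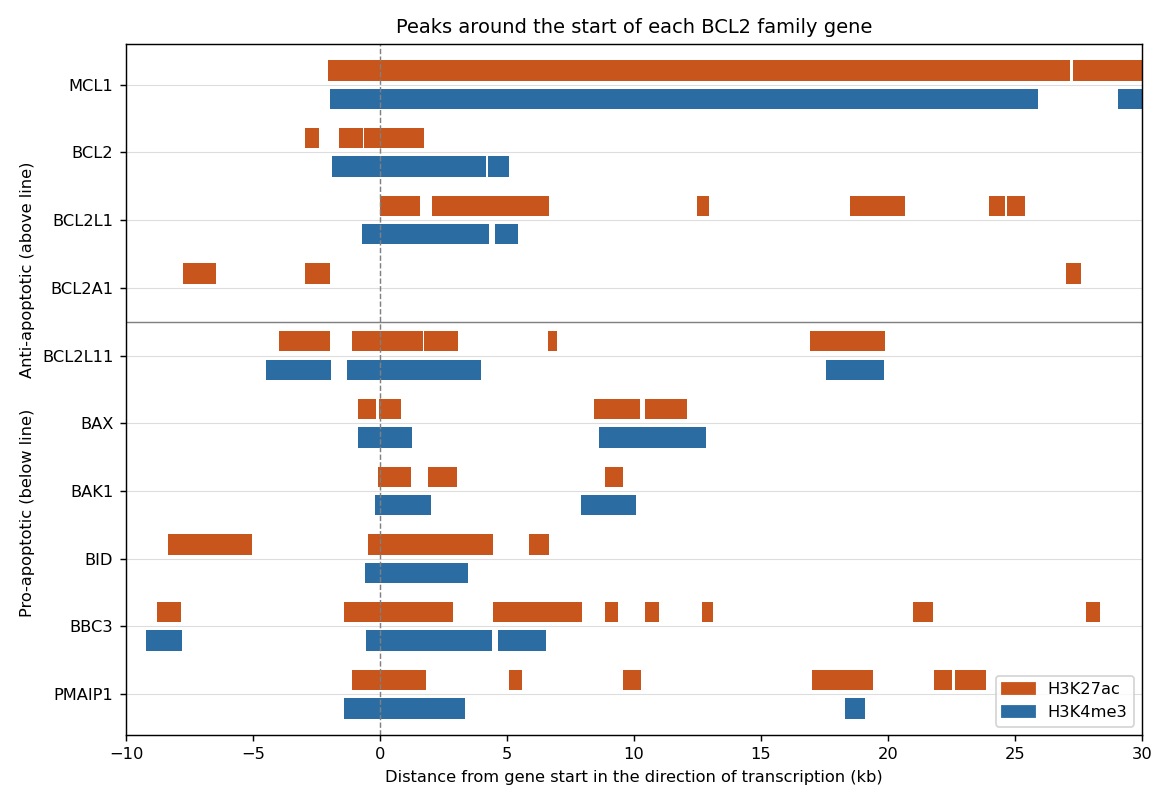
Peaks of H3K27ac (upper bars) and H3K4me3 (lower bars) from 10 kb before to 30 kb after the start of each gene, in the direction of transcription, with anti-apoptotic genes above the line. For MCL1 the higher-coordinate end of the span is taken as the start. BCL2A1 has no peak over its start, and the MCL1 bars run beyond 25 kb.

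MCL1, whose short-lived protein sequesters BAK1 and BIM, lay inside 1 of the widest peaks of either list. Its H3K27ac peak ran from 150552431 to 150581666 of chromosome 1 (hg38), 29236 bp, the number 11 by width among 72894 peaks. Its H3K4me3 peak ran from 150553697 to 150581588, 27892 bp, the number 4 by width among 32043. Each covered all 5053 bp of the gene at 150574558 to 150579610. The gene is small against these peaks, which lay unevenly around it. They extended 22127 bp (H3K27ac) and 20861 bp (H3K4me3) beyond its lower-coordinate end, but 2056 and 1978 bp beyond its higher-coordinate end. The table of gene starts gave none for MCL1. From general knowledge it is read toward lower coordinates, which puts the long arm of both peaks beyond the far end of the gene.

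The MCL1 domain touched 7 annotated genes of any kind, of which ADAMTSL4, a gene of a secreted matrix protein, was the other protein-coding one. A separate peak of each mark covered the ADAMTSL4 start, 4978 bp of H3K27ac with a score of 1554 and 3635 bp of H3K4me3 with a score of 3100. Between the domain and that peak the H3K27ac list left a gap of 97 bp and the H3K4me3 list a gap of 3129 bp. On the other side 3 H3K27ac peaks without H3K4me3, of 3285, 1616 and 4200 bp, lay 23603, 27770 and 31095 bp from the gene. Beyond them ENSA, encoding a regulator of the mitotic phosphatase PP2A, had 11919 bp of H3K27ac and 9440 bp of H3K4me3. In all, H3K27ac covered 51.0% and H3K4me3 37.2% of the 105053 bp window, at percentiles 99.8 and 99.6 of all protein-coding genes.

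BCL2, the founding survival gene of the family, showed its highest H3K27ac score away from its start. At the start, at 63319769 of chromosome 18 and on the minus strand, the H3K27ac peak scored 701 over a width of 2345 bp, and a second one of 952 bp and a score of 573 followed after it in the upstream direction. The H3K4me3 peak over both was 6097 bp wide, at percentile 90.3 of genes with H3K4me3 at the start. The BCL2 gene spans 196745 bp, and 11 H3K27ac and 6 H3K4me3 peaks lay inside it away from the start. The highest-scoring one, at 63175408 to 63181772, had an H3K27ac score of 3100 over 6365 bp and lay 137997 bp downstream of the start. An H3K4me3 peak of 2649 bp with a score of 316 lay inside it. It is more than 2.5 kb from the end of any annotated gene, which is called distal here, and 1.89% of distal H3K27ac peaks scored 3100 or more.

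The other peaks inside BCL2 were weaker. A group 54051 to 58317 bp downstream of the start had 3 H3K27ac peaks with scores of 32.0, 295 and 38.1, the middle one over 2 H3K4me3 peaks scoring 51.2 and 63.9. A pair 79443 to 83135 bp downstream scored 205 and 179. The farthest inside the gene, 179151 to 185282 bp downstream, scored 209 and 36.4. With 15 distal H3K27ac peaks BCL2 stood at percentile 97.9 of all genes, against a median of 2 per gene. Its window is also the longest of the 10, and per 100 kb its 6.40 H3K27ac peaks stood at percentile 70.6.

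BCL2L1 encodes BCL-XL, which holds BAX and the BH3-only proteins in check. It had 2 listed starts, of which the upstream one is at 31723963 of chromosome 20 on the minus strand. An H3K27ac peak of 1592 bp with a score of 2322 ended 2 bp upstream of that start and ran 1589 bp downstream. A wider one, 4614 bp with a score of 1010, followed at 2035 to 6648 bp downstream. A single H3K4me3 peak of 5002 bp reached from 726 bp upstream to 4275 bp downstream and touched both. Inside the gene 5 further H3K27ac peaks scored 31.6 to 401, the highest of them 18514 bp downstream and without H3K4me3. TPX2, a spindle assembly gene 15327 bp away, held the highest-scoring H3K27ac peak of the window, 4907 bp with a score of 2645.

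BCL2A1 encodes BFL-1, a survival protein of blood cells, and was the unmarked member. No peak of either mark touched its span at 79960892 to 79971196 of chromosome 15. The nearest H3K27ac peak, 962 bp with a score of 57.2, lay 1973 bp upstream of the start. The next, 1322 bp with a score of 49.0, lay 6449 bp upstream. The only H3K4me3 peak in the window, 4725 bp with a score of 3100, lay at the start of ST20-MTHFS, 34817 bp beyond the far end of the gene, together with H3K27ac peaks scoring 1082 and 567. The 3 H3K27ac peaks of the BCL2A1 window that lay at no other gene start all scored below 100.

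The sequence before the BCL2A1 start also stood apart from that of most members. The RefSeq table held a start for 9 of the 10 genes. In the 250 bases before it BCL2A1 had 2 CG dinucleotides, against a median of 17 over 15808 protein-coding genes with a start listed, and 96.9% of these held at least 1. PMAIP1 had 36, BCL2L11 34, BAX 25, BCL2 24 and BCL2L1 17, while BAK1 had 5 and BID and BBC3 had 4 each. The listed starts of BCL2 (63319769) and BBC3 (47232667), both on the minus strand, lie inside spans that end at 63320090 and 47232860. Their counted bases thus include annotated gene. BID had 5 listed starts and BCL2L1 had 2, and only the most upstream was counted. Shown here are the unmarked BCL2A1, the members with the most CG, PMAIP1 and BCL2L11, and BAX, whose H3K27ac was weak. They are read 5′ to 3′ in the direction of transcription from the RefSeq table of GRCh38.p14 (hg38), at chr15:79971197-79971446 on the minus strand for BCL2A1 and, on the plus strand, chr2:111120664-111120913 for BCL2L11, chr18:59899746-59899995 for PMAIP1 and chr19:48954625-48954874 for BAX. Capitals mark each CG, which reads the same on both strands.
BCL2A1: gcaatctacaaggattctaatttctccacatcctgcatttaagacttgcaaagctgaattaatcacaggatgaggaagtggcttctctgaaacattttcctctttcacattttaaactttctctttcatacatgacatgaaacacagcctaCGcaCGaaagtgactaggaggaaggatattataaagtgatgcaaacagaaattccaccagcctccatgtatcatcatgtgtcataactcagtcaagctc
BCL2L11: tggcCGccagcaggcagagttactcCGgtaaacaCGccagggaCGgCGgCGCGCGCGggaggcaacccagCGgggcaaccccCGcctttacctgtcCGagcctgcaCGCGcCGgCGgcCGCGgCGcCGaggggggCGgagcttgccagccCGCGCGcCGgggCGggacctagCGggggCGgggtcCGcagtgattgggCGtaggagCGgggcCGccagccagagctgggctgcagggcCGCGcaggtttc
PMAIP1: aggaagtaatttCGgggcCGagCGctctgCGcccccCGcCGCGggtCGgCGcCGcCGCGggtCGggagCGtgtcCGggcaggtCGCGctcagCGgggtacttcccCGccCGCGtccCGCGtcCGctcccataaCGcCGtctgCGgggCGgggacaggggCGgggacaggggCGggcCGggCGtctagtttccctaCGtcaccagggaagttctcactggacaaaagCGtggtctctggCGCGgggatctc
BAX: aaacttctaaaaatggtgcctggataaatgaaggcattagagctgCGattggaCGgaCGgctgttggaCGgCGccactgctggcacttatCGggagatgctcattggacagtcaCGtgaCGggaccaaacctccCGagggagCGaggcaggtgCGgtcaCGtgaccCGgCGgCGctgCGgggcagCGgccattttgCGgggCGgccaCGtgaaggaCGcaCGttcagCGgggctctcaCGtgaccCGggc

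Across the genes with a listed start the marks were called more often where CG was frequent. Here a peak counted only within 1 kb of the most upstream listed start. Of 2036 genes with at most 2 CG in these 250 bases, 12.4% had H3K27ac and 11.0% had H3K4me3 at the start. Of 2200 genes with 31 or more, 82.3% had H3K27ac and 96.0% had H3K4me3. BCL2A1 fell in the first group and was unmarked like most of it. BAK1, BID and BBC3 fell among 1610 genes with 3 to 5 CG, of which 25.8% had H3K27ac and 26.1% had H3K4me3, and all 3 carried both marks. Other motifs were divided among the members. The GC box GGGCGG or its reverse complement CCGCCC, which contains a CG, was in BCL2L11, PMAIP1, BAX and BAK1 and in 55.8% of all such sequences. The TATA letters TATAAA or TTTATA were in BCL2A1 and BCL2L1 and in 9.36% of all. The CCAAT letters CCAAT or ATTGG were in BCL2L11, BAX, BAK1 and BBC3 and in 34.4% of all.

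**Figure D2:**
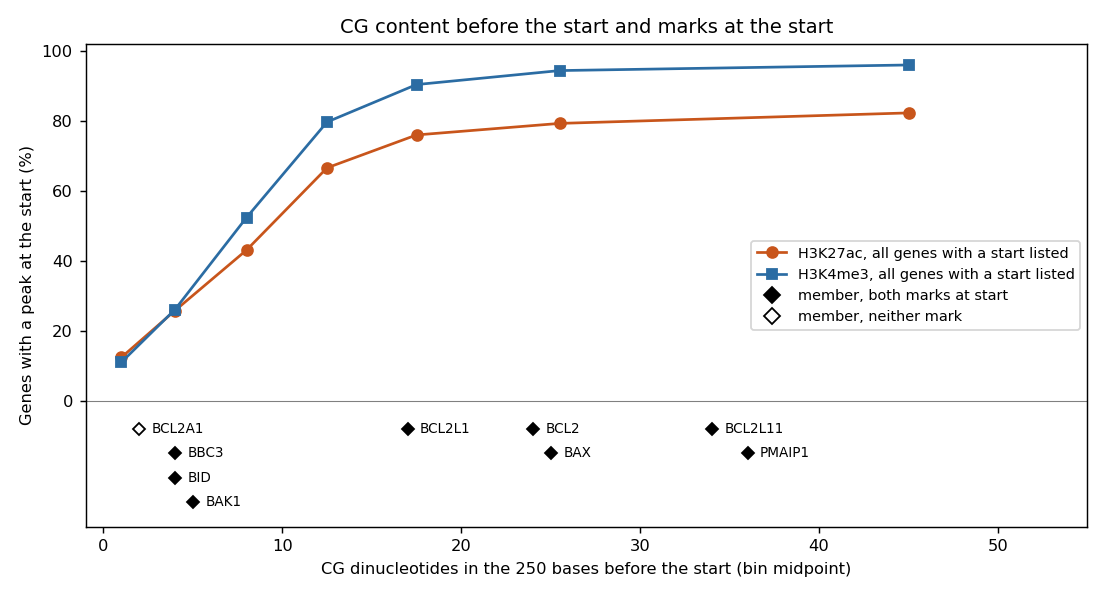
Percentage of genes with a peak within 1 kb of the most upstream listed start (vertical axis) by the number of CG dinucleotides in the 250 bases before it (horizontal axis, bin midpoints). Shown are 15808 genes with a start listed, with the CG counts of 9 members as diamonds below the axis. H3K4me3 runs from 11.0% to 96.0%, and BCL2A1, the open diamond, has 2 CG.

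The pore-forming effectors had the narrowest marks among the 9 marked genes. BAX, at 48954875 on the plus strand of chromosome 19, had an H3K27ac peak of 837 bp with a score of 171 over its start and another of 748 bp with a score of 67.1 ending 138 bp upstream. BAK1, at 33580276 on the minus strand of chromosome 6, had 1309 bp with a score of 260. By score these stood at percentiles 21.5 (BAX) and 28.9 (BAK1) of genes with H3K27ac at the start. Their H3K4me3 peaks were 2135 and 2186 bp wide, at percentiles 18.8 and 19.8, with scores of 3100. Both marks were thus narrower at BAX and BAK1 than at the other marked members, while the H3K4me3 score, which is 3100 at all 9, cannot separate them.

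The surroundings of the effectors were unlike. The BAX window held 13 H3K27ac and 7 H3K4me3 peaks in 106924 bp, and 6 of the 13 lay at the starts of other genes. The nearest of these genes were FTL, encoding ferritin light chain and starting 3511 bp from BAX, DHDH and GYS1, the glycogen synthase gene of muscle. A further H3K27ac peak of 6234 bp with a score of 3100 lay 24459 bp upstream of BAX and at no listed start, over an H3K4me3 peak of 1300 bp with a score of 300. The BAK1 window held 8 H3K27ac peaks, of which 5 scored below 100 and the highest, with a score of 265, lay at the start of ITPR3, an inositol trisphosphate receptor gene. An H3K4me3 peak of 2159 bp with a score of 2000 lay 206 bp beyond the far end of BAK1, over an H3K27ac peak scoring 58.3. It is at no listed start of another protein-coding gene.

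The 4 BH3-only genes of the set resembled one another at their starts more than they resembled the effectors. BCL2L11, at 111120914 of chromosome 2, had an H3K27ac peak of 2768 bp with a score of 2873, the highest at a start after MCL1. BBC3 had 4276 bp and a score of 2445, PMAIP1 2914 bp and 2434, and BID 4913 bp and 2253. Their lowest score, 2253, was above the 260 of BAK1 and the 171 of BAX, and their H3K4me3 peaks of 4034 to 5251 bp were wider than the 2186 and 2135 bp of the same effectors. This division of the pro-apoptotic genes was made after the values were seen, and it carries no test. It follows the known roles only within the set. Of the BH3-only genes outside it, BAD scored 1607, BMF 1057, BIK 172 and HRK 156 for H3K27ac at the start, all below 2253. BOK, an effector relative, scored 904, above BAX and BAK1.

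**Figure D3:**
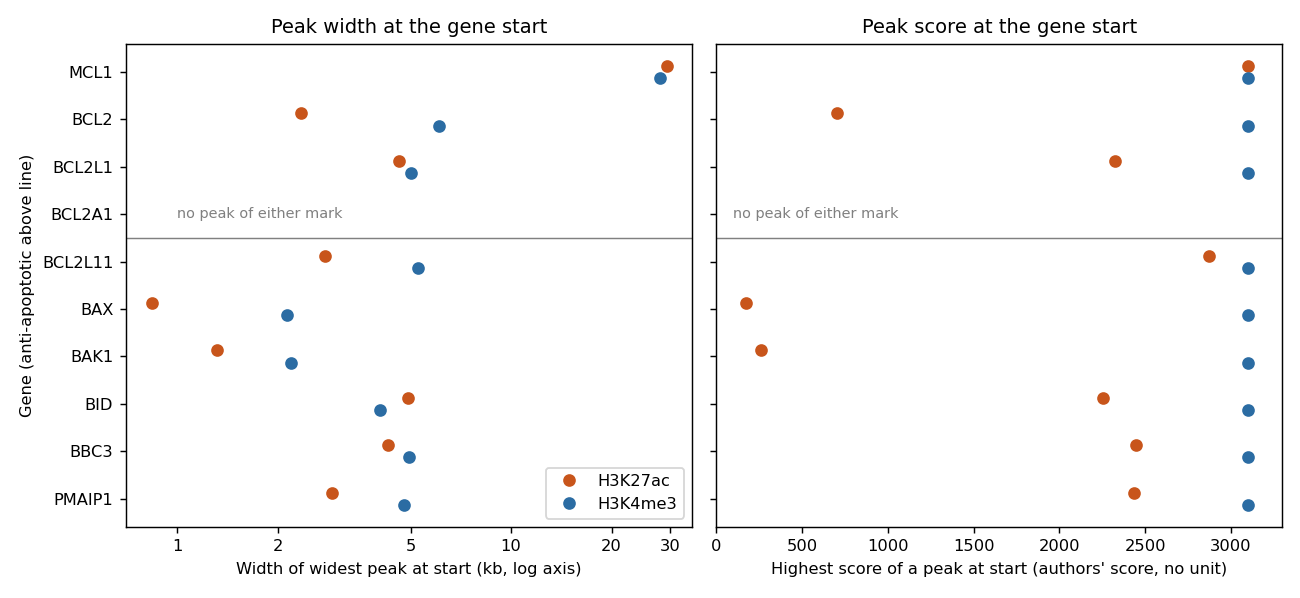
Width of the widest peak (left, kb, log axis) and highest authors' score (right, no unit) at the start of each gene, for H3K27ac and H3K4me3, with anti-apoptotic genes above the line. H3K4me3 scores are 3100 at all 9 marked genes, while H3K27ac scores run from 171 at BAX to 3100 at MCL1.

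Away from the start each BH3-only gene had H3K27ac of its own pattern. BID, which caspase 8 cleaves to link death receptors to mitochondria, had a peak of 3335 bp with a score of 2222.5 at 5030 bp upstream of its start and without H3K4me3, nearly the score of the start itself. BCL2L11 had a peak of 2949 bp with a score of 490 inside the gene, 16922 bp downstream, over 2263 bp of H3K4me3 scoring 129. A second H3K4me3 peak of 2528 bp with a score of 2657 lay 1948 bp upstream of BCL2L11, over an H3K27ac peak scoring 164. PMAIP1 had 5 H3K27ac peaks within 23838 bp downstream of its start, the highest with 2385 bp and a score of 531 at 17016 bp, and no peak upstream other than that over its start.

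BBC3, a classical target gene of p53, had the densest H3K27ac peaks of the set. Its window at 47220824 to 47232860 of chromosome 19 and 50 kb either side held 18 H3K27ac peaks, 16.1 per 100 kb and percentile 98.6, and 8 H3K4me3 peaks, 7.14 per 100 kb and percentile 94.0. Of the 18, 10 scored below 100. A peak of 3512 bp with a score of 791 lay inside the gene 4443 bp downstream of its start, over 1877 bp of H3K4me3 scoring 1476. The highest H3K27ac score of the window, 2514, belonged to the start of CCDC9. INAFM1 and SAE1 had 3 of the other H3K27ac peaks within 1 kb of an annotated start or, for SAE1, an end. Of the BBC3 window 21.4% was covered by H3K27ac and 15.0% by H3K4me3, beside 21.7% and 16.5% for BAX.

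Counted alone, the peak over the start reached further in the direction of transcription than against it, for both marks. In all 8 members with a peak over a listed start the H3K27ac peak there extended further downstream. Its median reach was 1709 bp downstream and 541 bp upstream, and 70.5% of all such genes had this asymmetry. Separate neighbouring peaks at the start were not counted. With its second peak, H3K27ac at BAX reached 885 bp upstream, against 809 bp downstream. At BCL2 it reached 1616 bp upstream, against 1734 bp downstream, and at BCL2L1 the second peak lay downstream, to 6648 bp. The H3K4me3 peak over the start extended further downstream in 8 of 8 members, with medians of 3714 bp downstream and 804 bp upstream, and in 77.1% of all such genes. The widest H3K27ac peak was narrower than the widest H3K4me3 peak at 7 of the 9 marked starts, with MCL1 and BID as exceptions, against 88.4% of all genes with both marks.

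Set against each other, anti-apoptotic and pro-apoptotic genes overlapped in the peaks of their windows. Both marks were at the start of 3 of 4 anti-apoptotic and 6 of 6 pro-apoptotic genes. The anti-apoptotic windows held 41 H3K27ac peaks, 6.10 per 100 kb over 671615 bp, and the pro-apoptotic windows 59, 8.21 per 100 kb over 719056 bp. For H3K4me3 these were 18 peaks, 2.68 per 100 kb, in anti-apoptotic and 26, 3.62 per 100 kb, in pro-apoptotic windows. By gene, the median H3K27ac density per 100 kb was 6.06 (4.53 to 6.90) over anti-apoptotic and 6.59 (4.07 to 16.1) over pro-apoptotic genes. For H3K4me3 it was 2.94 (0.91 to 3.13) over anti-apoptotic and 2.87 (1.42 to 7.14) over pro-apoptotic genes, the reverse of the pooled order. The median share of a window covered by H3K27ac was 11.4% (range 6.54 to 51.0) over anti-apoptotic and 9.32% (5.99 to 21.7) over pro-apoptotic genes, a difference of 2.09 percentage points that turned to -1.24 with flanks of 20 kb. For H3K4me3 the medians were 7.55% (4.28 to 37.2) over anti-apoptotic and 7.59% (4.05 to 16.5) over pro-apoptotic genes, and their difference of -0.03 points depended on the flank, with -3.03 at 20 kb and 3.15 at 100 kb. The ranges overlapped in each comparison, and the genes are not replicates of a class.

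At the marked starts the peak widths of anti-apoptotic and pro-apoptotic genes overlapped, with MCL1 far above the rest. The median of the widest H3K27ac peak was 4614 bp over the 3 marked anti-apoptotic genes (2345 to 29236) and 2841 bp over the 6 pro-apoptotic genes (837 to 4913). The 4614 bp are those of the downstream BCL2L1 peak, and with the peak over the most upstream start alone the medians were 2345 bp over anti-apoptotic and 2841 bp over pro-apoptotic genes, so that the order turned. For H3K4me3 it was 6097 bp over anti-apoptotic (5002 to 27892) and 4405.5 bp over pro-apoptotic genes (2135 to 5251), with the same medians over the most upstream start alone. These H3K4me3 ranges overlapped only in that BCL2L11, at 5251 bp, was wider than BCL2L1, at 5002 bp. The medians of the highest H3K27ac score hardly differed, 2322 over anti-apoptotic and 2343 over pro-apoptotic genes. Among distal H3K27ac peaks, 25 lay in anti-apoptotic windows, 15 of them around BCL2, and 22 in pro-apoptotic windows.

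**Figure D4:**
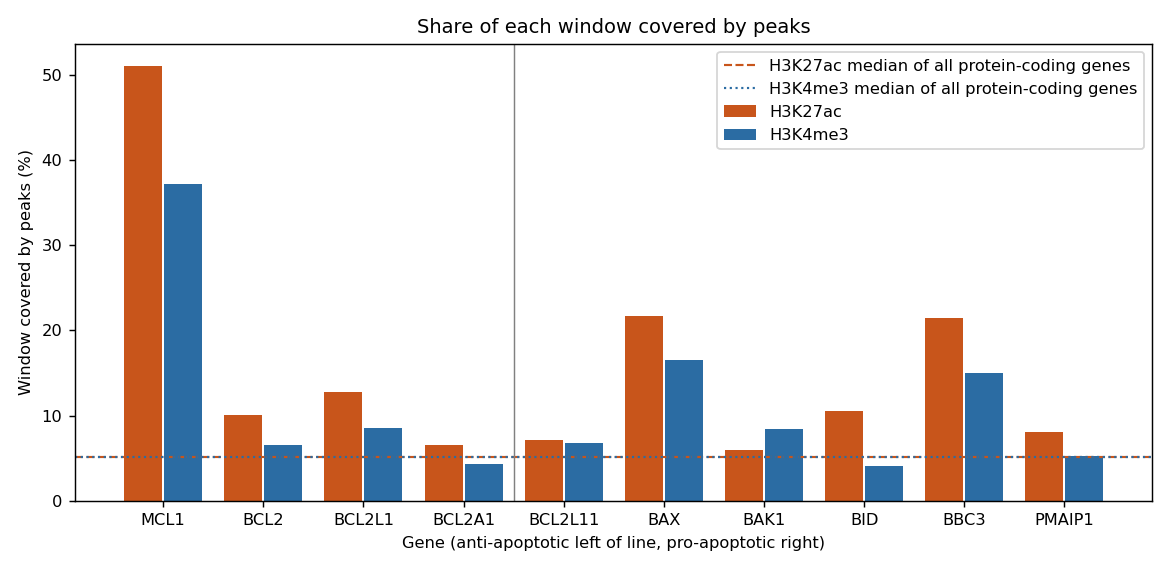
Percentage of each window (gene span and 50 kb either side) covered by H3K27ac and H3K4me3 peaks, with the median of all protein-coding genes as dashed and dotted lines. MCL1 reaches 51.0% for H3K27ac, and all 10 genes lie above the H3K27ac median of 5.18%.

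Compared with all protein-coding genes, the windows lay above the median for H3K27ac, some of them narrowly. All 10 genes lay above the median for the covered share, 5.18%, and for peaks per 100 kb, 3.96, with medians over the 10 of 10.3% and 6.08 per 100 kb. Percentiles ran from 54.6 (BAK1) to 99.8 (MCL1) for the covered share and from 51.1 (BCL2L11) to 98.6 (BBC3) for peaks per 100 kb. With scores of at least 100 the pooled density fell from 7.19 to 3.88 per 100 kb, and the median of all genes was not recomputed. For H3K4me3, 8 of 10 were above the median covered share of 5.10% and 6 of 10 above the median of 2.12 peaks per 100 kb. At least 1 H3K27ac peak lay in every one of the 10 windows, as in 91.7% of all genes, and at least 1 H3K4me3 peak, as in 89.4%. Windows around genes with marked neighbours include the neighbours' peaks, and 19 of the 100 H3K27ac peaks and 14 of the 44 H3K4me3 peaks lay at the start of another protein-coding gene.

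The marks coincided at part of the peaks in these windows, which hold gene starts by the way they were chosen. Of the 100 H3K27ac peaks 47.0% (36.9 to 57.2) overlapped an H3K4me3 peak by at least 1 bp, against 34.8% of all H3K27ac peaks. The intervals here count peaks as independent although the peaks cluster in 10 windows, so they are no test. The 2 sets also differ in make-up, with 47 of the 100 peaks distal against 47559 of all 72894. The overlapped share in these windows depended on the weak peaks, and was 72.2% with scores of at least 100 and 78.2% with the H3K27ac list shortened to the length of the H3K4me3 list. The share of all H3K27ac peaks was not computed under these limits, so the 34.8% cannot be set beside them. Of the 44 H3K4me3 peaks 86.4% (72.6 to 94.8) overlapped H3K27ac, against 71.0% of all. The 47 distal H3K27ac peaks overlapped H3K4me3 in 9 cases, 19.1% (9.15 to 33.3), near the 18.4% of all distal peaks, and 17 distal peaks were left under either of these limits. Distal peaks can lie at a start listed inside a gene. The BID window peak with a score of 506, at a BCL2L13 start, is 1 of these 9. Every one of the 10 genes had at least 1 distal peak among the 47, as did 79.6% of all genes. By location, 12 H3K27ac peaks lay at a member's start, 25 elsewhere in the gene and 44 in the flanks at no counted start of a protein-coding gene, and of these last 2 groups 7 and 10 overlapped H3K4me3. Weak peaks were common, and 46 of the 100 H3K27ac peaks scored below 100.

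**Figure D5:**
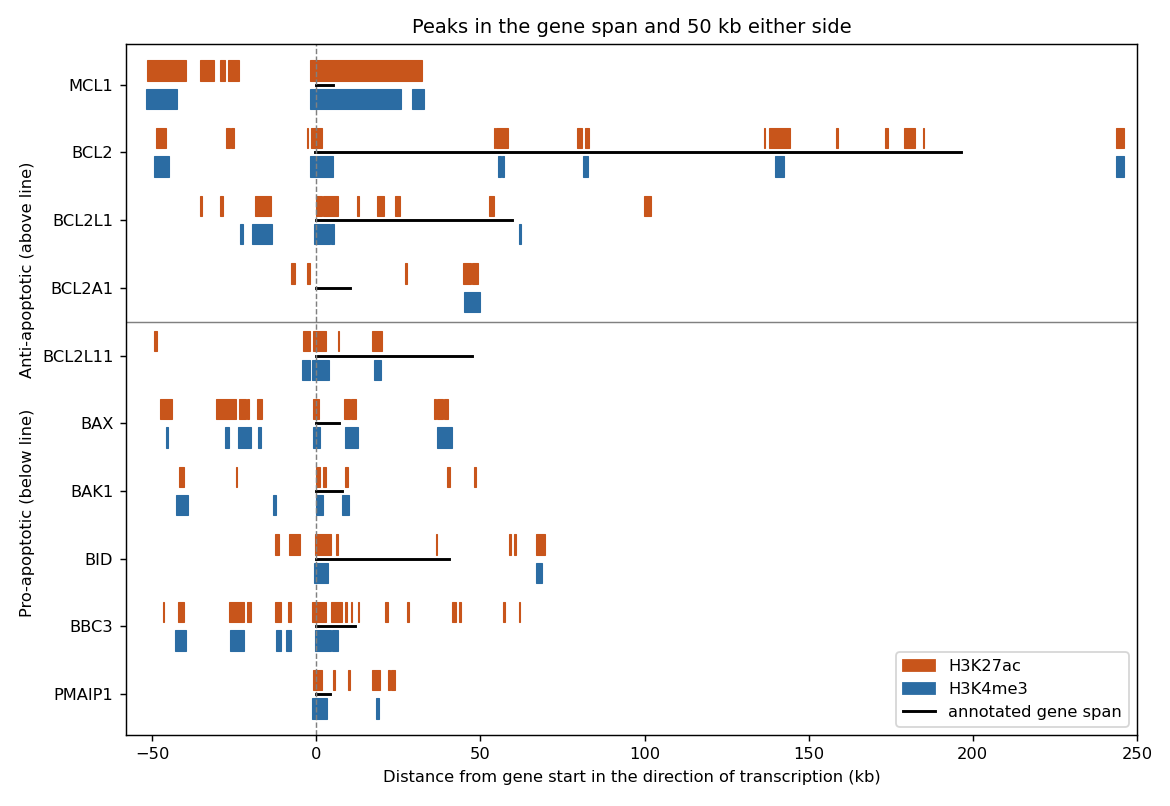
Peaks of H3K27ac (upper bars) and H3K4me3 (lower bars) in the span (black line) and 50 kb either side of each gene, by distance from the start in kb in the direction of transcription. BCL2 has 11 H3K27ac peaks inside its 196745 bp away from the start, and the PMAIP1 peaks lie downstream of it.

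Other listed genes of the apoptosis pathway were mostly marked as well. Among 10 other BCL2 family genes 7 had both marks at the start, against 57.7% of all genes. BCL2L2, encoding the survival protein BCL-w, had 1420 bp of H3K27ac with a score of 256, BOK, an effector relative, 3002 bp with 904, and BAD, a BH3-only gene, 2915 bp with 1607. BCL2L10 had H3K4me3 only, with a score of 167, BCL2L14 had H3K27ac only, with a score of 38.7, and BCL2L15 had neither. Over all genes H3K4me3 alone was called at 12.3% of starts and H3K27ac alone at 2.27%.

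Downstream of the mitochondrion all 12 listed genes of caspases, the apoptosome and their inhibitors had both marks, against 57.7% of all genes. Their median H3K27ac score was 635, close to the 629 of all genes with H3K27ac at the start. APAF1, the apoptosome scaffold, had 912 bp of H3K27ac with a score of 257, CYCS, encoding cytochrome c, 1668 bp with 1074, and the initiator caspase gene CASP9 319 bp with 215. In the death receptor arm 8 of 9 listed genes had both marks, against the same 57.7%, with a median score of 1697 beside the same 629. FAS had a score of 1660, its adaptor FADD 2194.5 and CASP8 3100, while CASP10 had neither mark at its ends, no start being listed for it. CFLAR, the caspase 8 inhibitor, had 17976 bp of H3K27ac, a value picked out after it was seen.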

How the data were processed

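H3K27ac and H3K4me3 were profiled by chromatin immunoprecipitation in HCC1599 cells, 1 library per mark, with an input whose reads were not analysed here. Formaldehyde cross-linked chromatin was, per the labels' protocols, cut by sonication and micrococcal nuclease, so that peak edges depend on digestion. The submitters' processing notes name MACS 1.4, the build hg38 and Bowtie2 without its version. The authors deposited 1 peak list per mark with a score for each peak, whose unit is not stated.

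Positions were counted from 1. Gene spans were taken from the GRCh38.p14 RefSeq gene table and starts from a RefSeq promoter table, which listed a start for 15813 of 19974 protein-coding genes (79.2%) and 9 of 10 members. For the other 4161 genes, MCL1 among them, a peak within 1 kb of either end of the span counted. Where several starts were listed, any counted for calls and the most upstream one for distances and sequence. The calls set against CG counts also used the most upstream start alone, and covered 15808 of the 15813 genes. Peaks were assigned by overlap of at least 1 bp, and distal peaks lay over 2.5 kb from the end of every annotated gene of any kind. Percentiles count ties by their midpoint. The genes named were all members, up to 3 marked neighbours of each, and in each pathway list the exceptions and the first 3 others. CFLAR, BMF, BIK and HRK were added after their values were seen. The members and lists were chosen with earlier results of these data known. Alternatives were other score minimums, list lengths, start windows, gene ends, overlaps, flanks, joining distances and distal distances. Computations used Python 3.11.15, numpy 2.4.6, scipy 1.17.1, pandas 2.3.3 and matplotlib 3.10.9. Window counts were checked against bedtools 2.31.1 and differed in 0 genes, and calls were tested on simulated data.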

Additional observations from a re-analysis of the deposited data

How the results depend on the processing

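Of 53 values recomputed under alternatives, 37 stayed within 1.5 times and in the same direction, 12 moved further and 4 changed sign. The 9 members with both marks, 3 anti-apoptotic and 6 pro-apoptotic, were counted again with scores of at least 100, equal list lengths, start windows of 500 bp and 2500 bp, and either gene end. With at least 50% of each peak required inside the start window the counts were 2 members, 0 anti-apoptotic and 2 pro-apoptotic, since a peak much wider than that window cannot meet this. With scores of at least 100 there were 3.88 H3K27ac peaks per 100 kb, 17 distal peaks, 72.2% of H3K27ac peaks overlapped by H3K4me3, and an anti-apoptotic minus pro-apoptotic difference of -1.09 points in H3K4me3 cover. With equal list lengths the values were 3.95 peaks per 100 kb, 17 distal peaks, 78.2% overlapped and 0.98 points in H3K27ac cover. Flanks of 20 kb gave -1.24 points for H3K27ac and -3.03 for H3K4me3, flanks of 100 kb gave 3.15 for H3K4me3, and merging peaks less than 500 bp apart gave 0.14, against -0.03 as reported. In an alternative chosen after seeing the data, the peak over the most upstream start alone, the anti-apoptotic minus pro-apoptotic median of H3K27ac width was -496 bp, against 1773 bp as reported. The cause of the other changes was not tested. No paired analysis was possible because each mark has 1 library. The number of reads is unknown, so weak peaks and unmarked starts are limited by an unknown depth.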
